A study of Mus musculus with 2084 samples.

Results

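Activated neural stem cells (aNSCs) are stem cells of the adult brain that have left quiescence and are entering, or have entered, division. Here they are the cells whose label gives the cell type as aNSC, in any genotype and treatment, and they numbered 124 of the 1981 labelled cells found in the RNA count table (6.26%). The cells came from the mouse ventricular-subventricular zone (vSVZ) and, for some animals, from the vSVZ together with the striatum. Each cell gave 1 RNA library, which was made alongside DNA methylation and chromatin accessibility libraries not analysed here. A letter marks each biological replicate, which held 1 or more mice, individual or pooled.

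Wild-type (WT) naive mice, which had neither tamoxifen nor ischemia, gave 80 aNSCs: 2 in letter pA, 2 in pB, 10 in pC, 63 in pD and 3 in pE. Naive TiCY mice gave 13 in letter pM; these mice received tamoxifen at 2 months of age, and a Cre recombinase under the Tlx (Nr2e1) promoter then switches on eYFP in neural stem cells. Naive mice labelled IFN(A/G)R KO gave 7 aNSCs in letter pJ, and mice labelled TiCY-IFN(A/G)R KO, killed 2 d after both carotid arteries had been occluded, gave 24, also in pJ. The labels do not give the background of the naive knockout (KO) mice beyond that name, and the occlusion followed tamoxifen by 2 weeks. The 2 groups of pJ were kept apart, so a unit below is a letter, or a letter and its treatment. TiCY naive, KO naive and KO 2 d each held 1 unit. The labelled tissue was the vSVZ in pA to pD and the striatum with the vSVZ in pE, pM and pJ.

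Quiescent stem cells of the vSVZ share much of their expression with astrocytes, among it glutamate transporters, lipid handling and the intermediate filament Gfap. On activation they raise protein synthesis, express the epidermal growth factor receptor and enter the cell cycle, and they then give rise to transit-amplifying progenitors (TAPs), which in turn give rise to neuroblasts that migrate to the olfactory bulb. Cell cycle genes are transcribed in waves: genes for DNA replication rise from late G1 into S phase under E2F transcription factors, and genes for chromosome segregation rise in G2 and mitosis. Notch ligands on activated cells signal to Notch receptors on neighbouring stem cells and hold those in quiescence.

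The aNSCs held 4090 to 1288961 counts per cell (median 143901) over 1751 to 10500 genes (median 4424.5). Genes per cell differed between units of like depth, with a median of 7288 in pC and 3803 in pD. WT cells (pA to pE) and TiCY and KO cells (pM and pJ) share no letter and are taken here as separate library sets, so genotype and library set cannot be told apart. The WT letters need not form 1 set, since genes per cell also differed among them (median 10495 in pE, which was sequenced deeper). They are nevertheless pooled below for 1 WT cycling threshold and 1 WT class. No 2 cells had identical counts. Sets of under 3 cells (pA and pB) were used for levels only, so the comparisons below rest on 6 units. Marker lists of cells that a vSVZ sort can carry over stayed low in the 8 units: microglial genes summed to 0 to 6.37 CPM (counts scaled to a common library total), pericyte genes to 0 to 127 and ependymal genes to 2.56 to 102. After each cell was thinned to 30000 counts, the oligodendrocyte lineage factor Sox10 and the precursor marker Pdgfra were each found in 1 of 111 aNSCs, and the endothelial Cldn5 in none, which allows a share of up to 2.70% of cells with a count. The endothelial list summed to 0 to 143 CPM, nearly all of it Pecam1, which was highest in pC with counts in 10 of 10 cells and did not pass the test against any other type.

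The label was checked against 4 genes. Egfr encodes the receptor for epidermal growth factor (11:16752203-16918158 on GRCm38, plus strand), Mcm7 a subunit of the replicative helicase (5:138164583-138172422, minus strand), Hells a chromatin remodeller needed for DNA methylation (19:38930915-38971051, plus strand) and Btg2 an antiproliferative cofactor (1:134075170-134079120, minus strand). Mcm7 and Hells are the replication-linked pair, and the stretches before their starts that hold a match to an E2F core motif are printed for that reason. The 250 bases before each RefSeq start (GRCm38.p6) were searched on both strands for the core letters TTGGCGC and their variants with other inner bases, which were TTCCCGC, the form spelled TTCGCGC and last the form TTGCCGC. Capitals mark the matches in each 30-base stretch:

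Mcm7, 5:138172030-138172059, minus strand: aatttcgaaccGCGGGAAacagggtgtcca

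Mcm7, second start, 5:138171361-138171390, minus strand: gcgctagcgaaTTCCCGCgtccactggaga

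Hells, 19:38930927-38930956, plus strand: ttTTCCCGCgaaagagaagcGCGCGAAttt

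The matches lay 165 and 113 bases before the respective Mcm7 starts, and 61 and 43 bases before the Hells start. GENCODE M21 places the first Mcm7 stretch and the Hells stretch in non-coding exon sequence of a longer transcript, and the second Mcm7 stretch in an intron. Of 32851 mouse promoters of this length in the same table, 7.89% held a match, and of 27025 genes 9.01% had a match in at least 1 promoter. Among the 25 S phase genes listed for this work, 19 had a promoter in the table and 13 of those had a match in at least 1 (68.4%), against 4 of 22 G2 and mitosis genes (18.2%). A match describes letters and not a bound site.

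Egfr was higher in aNSCs than in every other labelled type of the same unit, in 22 of 22 pairings. Its level in aNSCs, in TMM-normalised CPM of summed counts, was 404 in pC, 293 in pD, 1556 in pE, 1156 in pM, 458 in pJ naive and 441 in pJ 2 d. In qNSC2, a label for quiescent neural stem cells, it was 149 in pD, 84.9 in pE, 141 in pM, 32.0 in pJ naive and 105 in pJ 2 d, so the types did not overlap. In TAPs it was 101 to 689, which overlaps the aNSC range. The log2 difference was 2.83 ± 0.96 (SE, 5 units) from qNSC2 and 1.21 ± 0.83 (6 units) from TAPs, and neither passed the test across all genes (edgeR adjusted p = 0.0933 and 0.575); the difference from neuroblasts did (4.76 ± 1.19, edgeR adjusted p = 0.0119, higher in 5 of 5 units).

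Hells was at 94.7 CPM in pC, 359 in pD, 394 in pE, 253 in pM, 135 in pJ naive and 114 in pJ 2 d. In qNSC2 it was at 19.8, 15.4, 7.77, 0 and 5.33 CPM (pD, pE, pM, pJ naive, pJ 2 d). No aNSC unit came near the qNSC2 range, and the log2 difference was 4.95 ± 0.89 (edgeR adjusted p = 0.00128, higher in 5 of 5 units). TAPs held 183 to 412 CPM of Hells, which overlaps the aNSC range. Mcm7 was at 25 (pJ naive) to 720 CPM (pE) in aNSCs, 6.91 to 28.8 in qNSC2 and 91.2 to 669 in TAPs; its difference from qNSC2 was 2.59 ± 0.68 (edgeR adjusted p = 0.0274, higher in 4 of 5 units) and lost its call without pD, pE or pJ 2 d (adjusted p up to 0.153). Btg2 was at 165 to 576 CPM in aNSCs, 30 to 281 in qNSC2 and 24.4 to 299 in TAPs. Btg2 passed against neuroblasts (log2 difference 3.41 ± 1.06, edgeR adjusted p = 0.044) and qNSC1 (4.45 ± 1.29, edgeR adjusted p = 0.036), the other quiescent label, but not against qNSC2 (1.37 ± 0.84, edgeR adjusted p = 0.396). Hells and Mcm7 passed the test against all 3 quiescent or astrocyte labels, and none of the 4 genes passed it against TAPs. Mcm7 overlaps 3 genes on its own strand, so some of its counts may belong to these.

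**Figure D1:**
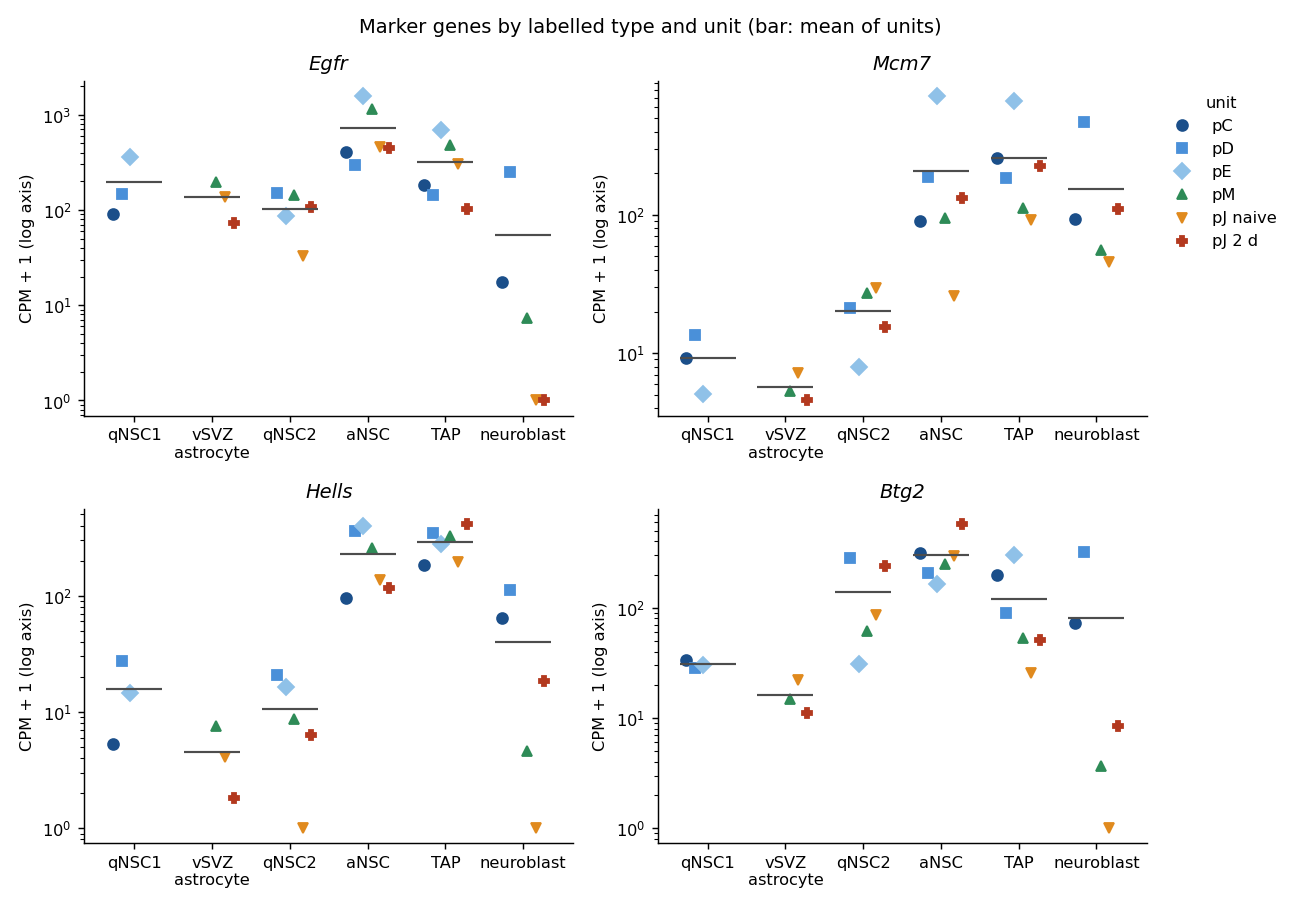
Levels of Egfr, Mcm7, Hells and Btg2 in each labelled type, as TMM-normalised CPM with 1 added on a log axis; each point is 1 unit and the bar is the mean of the units shown. aNSC points of Hells lie at 94.7 CPM or more and those of qNSC2 at 19.8 or less, while the aNSC and TAP points overlap for all 4 genes.

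Against qNSC2, the cells labelled as quiescent, aNSCs had more RNA of replication genes, G1 cyclins and their kinases, ribosomal proteins and the Notch ligand Dll1, and less of astrocyte-like and quiescence genes. Sums per type and unit were compared in 1 edgeR fit of 6 labelled types with the unit as a block. It called 775 of 17427 genes (4.45%) over 5 units, 350 higher in aNSCs (2.01%) and 425 lower (2.44%). That balance turned in every fit that left out a unit, for example 303 higher and 224 lower without pJ naive and 194 and 154 without pE, and with sums of 5 or more cells (248 and 184). The labelled types may themselves rest on these transcriptomes, so this and the other p-values between types describe the labels. In summed counts, fewer cells with a transcript and less of it per cell cannot be told apart.

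Of the 25 S phase genes, all 25 lay higher in aNSCs and 15 passed (median log2 difference 3.71, against -0.30 over all genes tested). They covered the helicase (Mcm2 4.97, Mcm5 4.90, Mcm6 3.46, Mcm7 2.59), its loading factor Cdc6 (7.32), the polymerase clamp Pcna (2.53), nucleotide supply (Rrm2 5.64, Tyms 2.63) and chromatin behind the fork (Uhrf1 5.06, Chaf1b 6.04). All 25 G2 and mitosis genes also lay higher (median 2.19), but 1 passed, the mitotic kinase Cdk1, at 1.29 to 75.3 CPM in aNSCs and 0 to 15.7 in qNSC2 (log2 difference 5.16). Its call was lost without pE, pM, pJ naive or pJ 2 d (adjusted p up to 0.161). The proliferation antigen Mki67 ranged from 2.39 CPM in pJ 2 d to 504 in pM within the aNSC label.

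Among 20 G1 regulators, 7 passed and all 7 were higher. Cdk6, the kinase that pairs with D cyclins, was at 570 CPM in pC, 573 in pD, 809 in pE, 296 in pM, 127 in pJ naive and 783 in pJ 2 d, against 131, 9.26, 7.26, 10 and 33.1 in qNSC2. The lowest aNSC unit lay just under the highest qNSC2 unit, and within every unit aNSCs were higher (log2 difference 4.52 ± 0.83, edgeR adjusted p = 0.00154). Its partner Ccnd1 was at 30.9 to 406 CPM against 1.00 to 33.4 (4.49 ± 0.98, edgeR adjusted p = 0.00691), a call lost without pE (adjusted p = 0.053). The others were Ccnd2 (2.37), Cdk4 (2.07), E2f1 (5.12), Mycn (3.04) and the inhibitor Cdkn1c (5.67), which was at 234 CPM in pJ 2 d and 0 to 51.2 in the other units and lost its call without pJ 2 d (adjusted p = 0.111).

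Ribosomal protein genes formed the most uniform group. All 30 passed and were higher in aNSCs, with log2 differences of 0.91 to 1.89 (median 1.52). Rps6, a protein of the small subunit, was at 1137 CPM in pC, 1821 in pD, 721 in pE, 401 in pM, 666 in pJ naive and 768 in pJ 2 d, and at 456, 151, 139, 134 and 263 in qNSC2. Only the qNSC2 sum of pD reached the lowest aNSC level, and each unit's aNSCs were higher than its qNSC2 (1.89 ± 0.23, edgeR adjusted p = 3.05e-05). Rps6, Rps7, Rplp0 and Rpl4 kept their calls without each unit in turn.

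Slit1, a secreted guidance cue for migrating neuroblasts and axons, was the largest gain among genes at 50 CPM or more that went one way in every unit. It was at 39.3 CPM in pC, 117 in pD, 156 in pE, 204 in pM, 202 in pJ naive and 293 in pJ 2 d, and at 0 to 4.67 in qNSC2, with no overlap (log2 difference 7.90 ± 1.10, edgeR adjusted p = 0.000115, higher in 5 of 5). TAPs held 76.1 to 176 CPM of it. Of 14 Notch pathway genes 9 lay lower in aNSCs (median -0.79), beside 10283 of all 17427 genes tested (median -0.30). The 4 Notch pathway genes that passed were higher. They were the ligands Dll1 (7.07), Dll3 (4.19) and Jag1 (2.99) and the fringe enzyme Mfng (6.75), which modifies Notch receptors. Dll1 was at 6.08 (pM) to 58.6 CPM (pC) in aNSCs and at 0 to 1.55 in qNSC2 (7.07 ± 1.51, edgeR adjusted p = 0.00691). Mfng was at 19.1 to 189 CPM against 0 to 3.02 (6.75 ± 1.30, edgeR adjusted p = 0.00233). Dll1 and Mfng kept their calls without each unit in turn, whereas Dll3 lost its call without any 1 of the 6 (adjusted p up to 0.156) and Jag1 without pC, pD, pE or pJ 2 d (up to 0.0788).

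Among 15 genes linked to activation, the transcription factors Sox4 (2.44) and Sox11 (3.09) and Dll1 passed. Sox11 kept its call without each unit and Sox4 lost it without pM, pJ naive or pJ 2 d (adjusted p up to 0.133). From the neuroblast list, Stmn1, a microtubule destabiliser, was at 387 to 2868 CPM in aNSCs against 64.5 to 772 in qNSC2 (2.5 ± 0.35, edgeR adjusted p = 0.000105, higher in 5 of 5 units). Nsg2 (2.90) was the other of the 20 neuroblast genes to pass, and the list's median was 0.70. Other genes in the set with the largest gains were the kinetochore protein Kntc1 (7.51), the replication licensing regulator Dtl (5.48) and the glycerol phosphate dehydrogenase Gpd1 (5.51). Kntc1 lost its call without pD, pE, pJ naive or pJ 2 d (adjusted p up to 0.125), Dtl without pE or pM (up to 0.0937) and Gpd1 without pE, pM, pJ naive or pJ 2 d (up to 0.132).

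The quiescence list held 18 genes, all lower in aNSCs, and 11 passed (median -3.03). Clu, a secreted chaperone, was at 37.4 CPM in pC, 321 in pD, 10.2 in pE, 222 in pM, 212 in pJ naive and 197 in pJ 2 d, against 5882, 3265, 2763, 3183 and 6272 in qNSC2. The groups did not overlap, and the log2 difference was -5.05 ± 0.79 (edgeR adjusted p = 0.0003, lower in 5 of 5). Thbs4, a matrix protein of quiescent stem cells, was at 7.53 to 31.3 CPM in 5 units and 218 in pM, against 444 to 817 in qNSC2 (-4.67 ± 0.72, edgeR adjusted p = 0.000427). The actin-severing Gsn was at 0 to 49.2 against 47.4 to 807 (-5.68 ± 1.05, edgeR adjusted p = 0.00165), and overlaps another gene on its strand. Id4, an inhibitor of helix-loop-helix factors that holds stem cells quiescent, was at 25 to 234 CPM against 241 to 1062 (-2.24 ± 0.46, edgeR adjusted p = 0.00426, lower in 5 of 5).

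All 18 astrocyte genes were lower too, and 10 passed (median -2.05), among them Gjb6 (-4.33), S100b (-4.15), Aqp4 (-3.69) and Aldoc (-3.32). Of the 6 fits that each left out 1 unit, Gjb6 lost its call in 3 (pD, pE, pJ 2 d; adjusted p up to 0.127), S100b in 4 (pC, pE, pM, pJ naive; up to 0.106), Aqp4 in 3 (pC, pE, pJ naive; up to 0.179) and Aldoc in all but the one without pD (up to 0.154). Of 18 glial stem cell genes, 16 were lower and 4 passed (Gfap, Id2, Id4 and Fgfr2; median -1.37). Gfap was at 8.46 to 190 CPM in 5 aNSC units and 2174 in pJ 2 d, and at 160 to 4181 in qNSC2; its call (-3.31 ± 0.96, edgeR adjusted p = 0.0464, lower in 4 of 5) was lost without pC, pD, pE, pM or pJ 2 d (adjusted p up to 0.256). Fatty acid oxidation genes leaned the same way, 16 of 19 lower and 4 passing, with the acyl-CoA synthetases Acsl3 (-2.40) and Acsl6 (-1.98) and the dehydrogenase Acadl (-1.66) among them. The largest losses were Ppp1r1b, the phosphatase inhibitor DARPP-32 (0 to 1.44 CPM in aNSCs, 26.7 to 81.3 in qNSC2, log2 difference -10.86), the myospryn gene Cmya5 (-7.19) and Rgs6, which ends G protein signals (0 to 8.61 against 96.7 to 210, -7.13), and all 3 kept their calls without each unit. Ependymal list genes summed to 122 to 289 CPM in qNSC2 and 2.56 to 90.2 in aNSCs of the same 5 units, with 6 of 7 tested genes not passing and Rarres2 lower (-4.44). Pericyte genes summed to 36.8 to 172 CPM in qNSC2 and 0 to 10.4 in aNSCs of those units, with Pdgfrb lower (-5.82), and the microglial Cx3cr1 was lower too (-7.15), with a mean of 15.6 CPM in qNSC2. Pdgfrb lost its call without pE (adjusted p = 0.0631) and Cx3cr1 without any unit but pE (up to 0.244). The part of these cells in the glial differences was not tested.

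The qNSC2 count depended on single units: 348 genes were called without pE, 379 without pJ 2 d and 461 without pM. Of 60 called genes chosen for description by size or list, 23 kept their call without each unit in turn, and 9 were called without the block. Without the block for the unit 59 genes were called in all, and 5 in the WT units alone, which are pD and pE here.

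**Figure D2:**
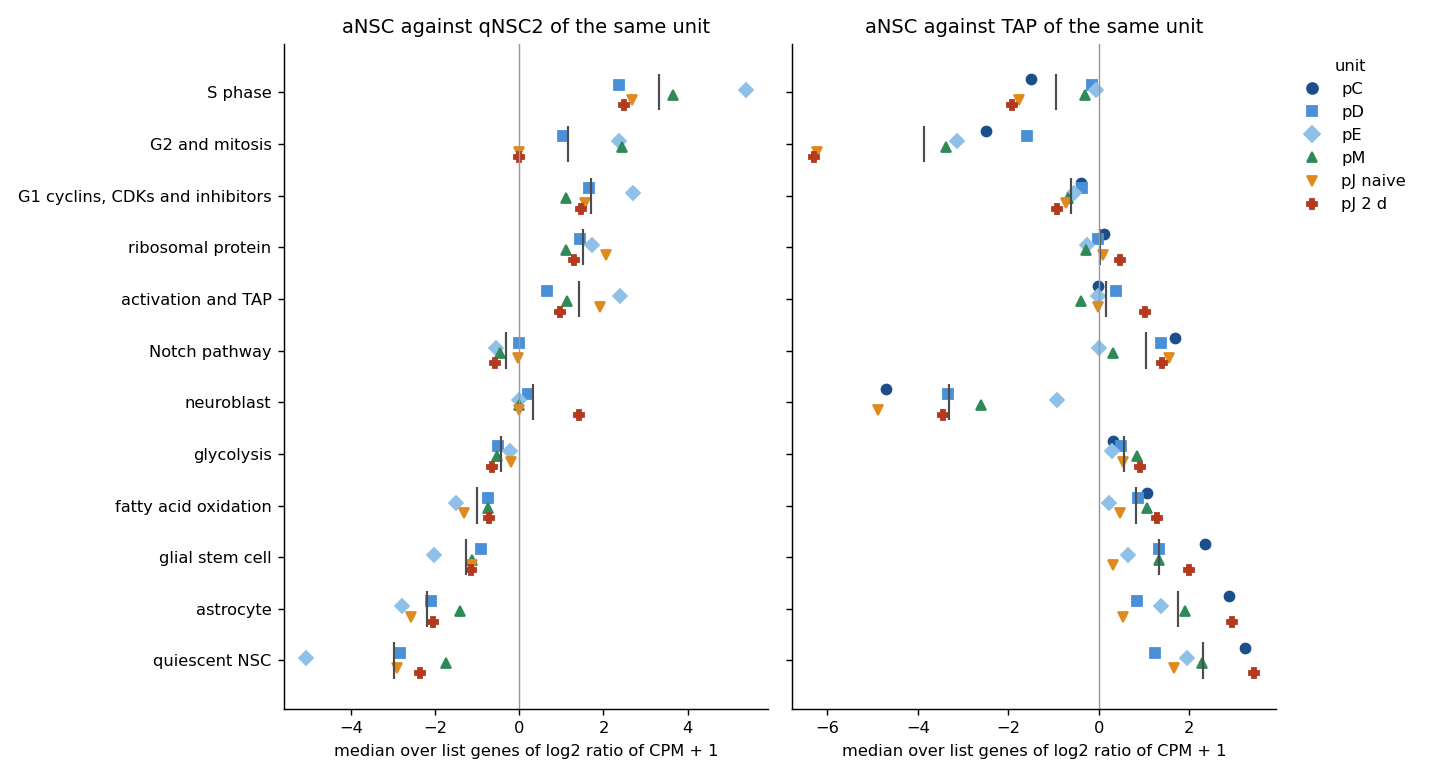
Median over the genes of each list of the log2 ratio of CPM with 1 added, aNSC over qNSC2 (left) and aNSC over TAP (right) of the same unit; points are units and the bar is their mean. In every unit the quiescence list lies below 0 against qNSC2 (-5.06 to -1.75) and above 0 against TAP (1.24 to 3.44), and the S phase list lies above 0 against qNSC2 (2.36 to 5.39).

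Against TAPs, aNSCs held less RNA of mitotic and neuroblast genes and more of astrocyte-like genes, while S phase genes lay lower with 1 passing the test and no ribosomal gene passed it. The fit called 254 genes (1.46%) over 6 units, 133 higher in aNSCs (0.763%) and 121 lower (0.694%). All 25 G2 and mitosis genes lay lower and 10 passed (median -4.53, against 0.06 over all genes tested). Plk1, a kinase of mitotic entry and spindle assembly, was at 31.6 CPM in pD, 0.94 in pM and 0 in the other 4 aNSC units, against 3.83 (pC) to 155 (pJ naive) in TAPs; within every unit TAPs were higher (-7.96 ± 1.53, edgeR adjusted p = 0.00642, lower in 6 of 6), a call lost without pJ 2 d (adjusted p = 0.0763). Ube2c, which marks mitotic cyclins for degradation, was at 5.80, 64.7, 1.61, 3.74, 0 and 0 CPM in aNSCs (pC, pD, pE, pM, pJ naive, pJ 2 d) and 73.9, 514, 199, 144, 218 and 382 in TAPs. Those ranges did not overlap, and the call held without each unit (-7.57 ± 1.36, edgeR adjusted p = 0.00373). The others were Ccnb1 (-7.00), Cenpf (-4.83), Kif11 (-5.12), Kif23 (-7.48), Nusap1 (-3.85), Birc5 (-5.00), Hmmr (-7.00) and Cdc20 (-6.52).

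All 25 S phase genes lay lower in aNSCs than in TAPs (median -0.95), with a median log2 ratio within a unit from -1.92 (pJ 2 d) and -1.76 (pJ naive) to -0.06 (pE), and 1 passed, the repressor E2f8 (-7.65), whose call held without pM and was lost without any 1 of the other 5 units (adjusted p up to 0.191). Mcm7 (-0.55 ± 0.56, edgeR adjusted p = 0.76) and Hells (-0.62 ± 0.70, edgeR adjusted p = 0.79) were lower in 4 of 6 units. Ribosomal genes had a median difference of 0.04 and none passed; the median turned to -0.0594 without pJ 2 d.

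Of 20 neuroblast genes all were lower and 13 passed (median -4.26). Dcx, a microtubule protein of migrating neuroblasts, was at 0 in pC, pJ naive and pJ 2 d and 0.27 to 7.01 CPM in pD, pE and pM, against 43.6 to 386 in TAPs, with no overlap (-7.18 ± 1.16, edgeR adjusted p = 0.0015, lower in 6 of 6). Sp8, a zinc finger factor of olfactory interneurons, was at 0.64 in pC and 0 in the other aNSC units, against 0.21 (pE) to 215 CPM (pC) in TAPs (-9.04 ± 1.28, edgeR adjusted p = 0.00042). Dlx1, from the same interneuron programme, was at 0 to 122 CPM against 237 to 916. Dcx and Sp8 kept their calls without each unit.

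On the other side, Cspg5, a neural chondroitin sulfate proteoglycan, was at 1276 CPM in pC, 829 in pD, 116 in pE, 525 in pM, 737 in pJ naive and 346 in pJ 2 d, against 30.7, 108, 7.41, 90.1, 89.7 and 18.5 in TAPs. All aNSC units lay above all TAP units (3.49 ± 0.66, edgeR adjusted p = 0.00592). Slc1a3, the glutamate transporter GLAST, was at 1049 to 2455 CPM in aNSCs, 95.8 to 602 in TAPs and 2323 to 4207 in qNSC2 (2.21 ± 0.42 from TAPs, edgeR adjusted p = 0.00606, higher in 6 of 6); GLAST was also an antibody target of the sorts. Pbxip1 followed the same order (23.4 to 209 in aNSCs, 0.42 to 27.8 in TAPs, 420 to 1260 in qNSC2; 3.46 ± 0.49 from TAPs, edgeR adjusted p = 0.00042). Cspg5, Slc1a3 and Pbxip1 kept their calls against TAPs without each unit.

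The quiescence list was higher in aNSCs than TAPs for 17 of 18 genes with 5 passing (median 2.45), and the astrocyte list for 17 of 18 with 8 passing (median 2.32). Apoe, the apolipoprotein of glia, was at 549 to 6075 CPM in aNSCs, 90.9 to 1297 in TAPs and 5627 to 22336 in qNSC2 (3.02 ± 0.59 from TAPs, edgeR adjusted p = 0.00768, lost without pJ 2 d at 0.0685). Gfap (4.63) and Aldoc (3.62) also passed against TAPs, both with their highest aNSC level in pJ 2 d; Gfap lost its call without pM, pJ naive or pJ 2 d (adjusted p up to 0.191) and Aldoc without any unit but pD (up to 0.273). Fatty acid oxidation genes were higher in 16 of 19, and 3 passed: the thiolase Acaa2 (33.5 to 169 CPM against 0.55 to 25.7; 3.23 ± 0.61, edgeR adjusted p = 0.00612), Acsl6 (1.98) and the lipid-sensing receptor Ppara. Ppara was at 0 in all 6 TAP units and at 4.51, 13.6, 74.8 and 53.6 CPM in aNSCs of pC, pD, pM and pJ 2 d, at least 172-fold higher over the group, though 0 in pE and pJ naive, and its call was lost without pJ 2 d (adjusted p = 0.0685). Notch3, a receptor of quiescent stem cells, was at 1.29 to 58.1 CPM against 0 to 2.78 (4.37 ± 0.99, edgeR adjusted p = 0.0226) and lost its call without pE, pM, pJ naive or pJ 2 d (adjusted p up to 0.111).

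The TAP count also rested on single units: 57 genes were called without pJ 2 d, 114 without pC, 125 without pM and 159 without pJ naive. Of 34 called genes chosen for description, 7 kept their call without each unit; without the block 32 genes were called, and in the WT units alone 0.

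Against neuroblasts (pC, pD, pM and both pJ units) the fit called 1558 genes (8.94%) over 5 units, 989 higher in aNSCs (5.68%) and 569 lower (3.27%). All 20 neuroblast genes passed as lower, and 13 of 18 quiescence, 13 of 18 astrocyte and 9 of 18 glial stem cell genes passed as higher. The sodium channel Scn3a was at 0 in the aNSCs of all 5 units and at 115 ± 45.9 CPM (SD, n = 5) in neuroblasts, at least 663-fold lower, and the vesicular GABA transporter Slc32a1 was at least 532-fold lower. Thbs4 was at 0 in all neuroblast units and at 57.3 ± 90.2 CPM in aNSCs, at least 288-fold higher. Egfr, Olig2 (5.67), Nr2e1 (5.16) and Dll1 (5.28) passed as higher, as did 8 of 14 Notch pathway and 11 of 16 tested glycolysis genes. The counts were 758 without pM, 762 without pJ 2 d, 989 without pJ naive and 848 without the block.

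Against qNSC1, compared in the WT units pC, pD and pE, 1144 genes were called (6.56%) over 3 units, 474 higher (2.72%) and 670 lower (3.84%). Against vSVZ astrocytes, compared in pM, pJ naive and pJ 2 d, 1330 were called (7.63%) over 3 other units, 485 higher (2.78%) and 845 lower (4.85%). These contrasts rest on different units, yet both held 16 of 18 astrocyte genes as lower and 29 (qNSC1) or 30 (astrocytes) of 30 ribosomal genes as higher. The growth-linked factor Mycn was among the largest gains in both, at 223 ± 177 CPM against 1.52 ± 2.38 in qNSC1 (n = 3; 6.58 ± 1.31, edgeR adjusted p = 0.0019) and 115 ± 73.8 against 0.126 ± 0.073 in astrocytes (n = 3; 9.99 ± 1.5, edgeR adjusted p = 9.5e-05). Nat8, an acetyltransferase gene of astrocytes, was among the largest losses in both, at 0.0478 ± 0.0828 against 85.5 ± 44.1 CPM in qNSC1, and at 0 against 144 ± 50.2 in astrocytes (at least 269-fold lower). The adenosine receptor Adora2b was at 0 in aNSCs and at least 304-fold lower than in qNSC1. Without pE or pC, 475 and 545 genes were called against qNSC1; without pJ 2 d, pM or pJ naive, 563, 573 and 697 against astrocytes. Without the block the counts were 311 and 545.

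The difference between aNSCs and qNSC2 was compared between WT units and TiCY and KO units. No gene of 11376 (0.0%) passed by edgeR, with 379 at an unadjusted p under 0.05; without pD, 3 passed. For the difference from TAPs, 0 of 10215 (0.0%) passed, with 376 under 0.05. The qNSC2 fit held 5 units and left 3 residual degrees of freedom, and the TAP fit held 6 units and left 4. What such small fits can recover was not measured, so the absence of calls does not show that the differences were alike. Genotype and library set cannot be told apart here.

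The share of cycling cells was counted on the number of the 25 S phase and 25 G2 and mitosis genes found in each cell after thinning to 30000 counts, which left out 9 of 124 aNSCs. A cell was called cycling above the 95th percentile of reference cells, which were taken as non-dividing by their label alone. This meant more than 8 S phase or more than 6 G2 and mitosis genes in WT units (90 qNSC1 cells). In TiCY and KO units (213 vSVZ astrocytes) it meant more than 3 or more than 2. Among those astrocytes, 15 of 111 in pM were called cycling (13.5%), 1 of 71 in pJ naive and 0 of 31 in pJ 2 d. Of 13 oligodendrocytes in pM, 5 were called (38.5%). Shares in pM thus include a higher background than those in pJ. The thresholds differ between library sets, so differences between types are taken within a unit, shares of WT and of TiCY and KO units are not compared, and totals over both are descriptions. By this count 65 of 115 aNSCs were cycling (56.5%) and 50 were not. Of the 65, 29 passed on S phase genes alone, 7 on G2 and mitosis genes alone and 29 on both. TAPs gave 99 of 115 (86.1%), of which 84 passed on both, and qNSC2 gave 23 of 178 (12.9%), of which 2 passed on both. Of the 115 aNSCs, 25 lay within 1 gene of a threshold, 14 of them in pJ 2 d.

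By unit, 4 of 8 aNSCs were cycling in pC, 36 of 62 in pD (58.1%, exact binomial 95% interval 44.8 to 70.5), 3 of 3 in pE, 5 of 11 in pM, 3 of 5 in pJ naive and 13 of 22 in pJ 2 d. The share was below that of TAPs in 5 of 6 units and equal in pE, with a mean difference of -30.8 ± 19 percentage points (SD, n = 6; exact two-sided sign-flip permutation test, p = 0.0625). It was above that of qNSC2 in 5 of 5 units, by 54.0 ± 28.2 points (exact permutation p = 0.0625, the smallest that 5 units allow), and above that of neuroblasts in 4 of 5 (22.6 ± 26.0 points, exact permutation p = 0.125); the last difference was 13.3 points without pJ naive, 9.15 by the share of a cell's counts on the lists and 7.37 on G2 and mitosis genes alone (higher in 3 of 5 units in both of these). With G2 and mitosis genes alone, aNSCs lay 57.6 points under TAPs (exact permutation p = 0.03125, the smallest that 6 units allow) and 34.5 points above qNSC2 (exact permutation p = 0.0625). Without thinning the differences were -27.2 and 52.8 points.

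**Figure D3:**
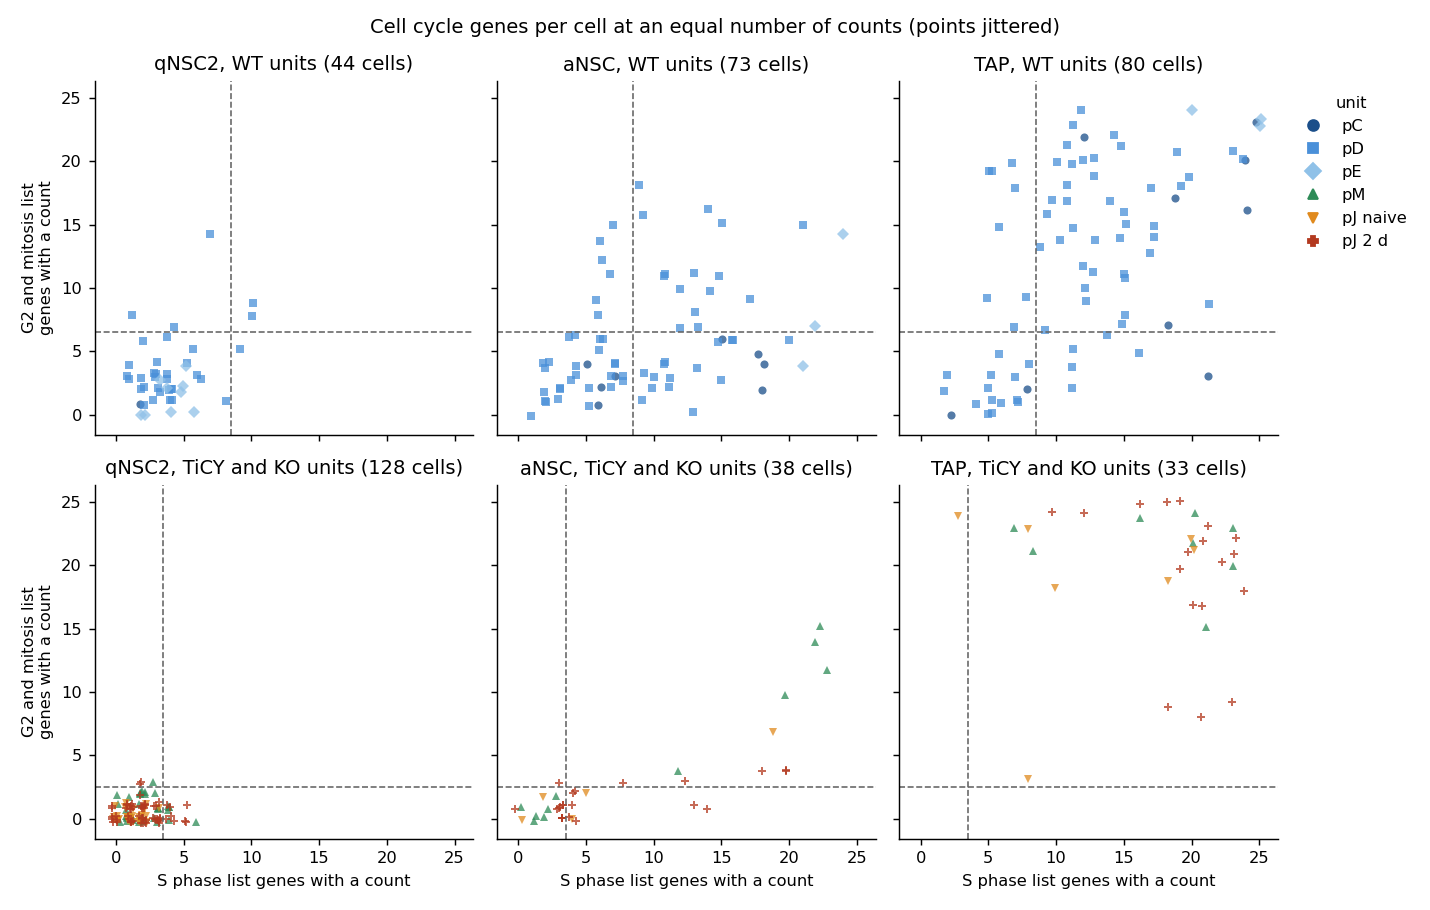
Number of the 25 S phase genes (horizontal) and 25 G2 and mitosis genes (vertical) found per cell at 30000 counts, for qNSC2, aNSC and TAP of the WT units (top) and the TiCY and KO units (bottom); dashed lines are the thresholds and points are jittered. Most TAPs lie in the upper right, with 84 of 115 past both lines, whereas 29 of 115 aNSCs are past both, 29 past the S phase line alone and 50 past neither; these totals include the few cells of pA and pB, which are not drawn.

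Within the label, cells with and without a cycling call differed in genes that the call did not use; the class is a range on a score, so no test is given. The quiescence list, summed at 30000 counts per cell, was 42293 to 52693 CPM in non-cycling qNSC2 and 11725 (pC), 15076 (pD), 25750 (pM) and 19756 (pJ 2 d) in non-cycling aNSCs. In cycling aNSCs it was 4380 to 12023, and in cycling TAPs 1029 to 3596. It fell in this order within every unit that had 3 or more cells of the classes. The astrocyte list followed the same order in each such unit, for example 36112, 26839, 8560 and 4292 CPM in pM. The glial stem cell list kept this order in pC, pD, pE and pJ naive only. In pM it was at 8040 CPM in non-cycling qNSC2 and 8528 in non-cycling aNSCs. In pJ 2 d it was at 4863 CPM in non-cycling and 5495 in cycling aNSCs. The neuroblast list ran the other way, at 488 to 1325 CPM in non-cycling qNSC2, 1175 to 2356 in non-cycling aNSCs, 1456 to 4141 in cycling aNSCs and 3879 to 10000 in cycling TAPs, each class above the one before within every unit. Between the aNSC classes that order rested on Stmn1 in pD and pM: without it, an alternative added after seeing the data, the list was at 1013 CPM in non-cycling and 882 in cycling aNSCs of pD, and at 1061 and 700 in pM, while pC (800 and 1275) and pJ 2 d (948 and 1277) kept the order. Without Stmn1 cycling TAPs, at 2083 to 5924 CPM, stayed above the other classes of their unit.

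Single genes showed where the non-cycling aNSCs stood. Clu was at 125, 609, 744 and 133 CPM in non-cycling aNSCs of pC, pD, pM and pJ 2 d, and at 2716 to 6306 in non-cycling qNSC2, so it was low in aNSCs with no cycling call as well. Apoe was at 4425 to 8770 in non-cycling and 578 to 4741 in cycling aNSCs, and the GLAST gene Slc1a3 at 1011 to 4839 and 655 to 2244. In pJ 2 d the Slc1a3 values of non-cycling and cycling aNSCs were 1011 and 964. Ccnd1, the D cyclin of G1, was at 417 (pC), 255 (pD), 137 (pJ 2 d) and 0 (pM) in non-cycling aNSCs, and at 0 to 14.6 in non-cycling qNSC2. Egfr was at 355 to 767 in non-cycling aNSCs against 50.5 to 151 in non-cycling qNSC2. The ribosomal list was at 23406 to 59452 CPM in non-cycling aNSCs and 5059 to 21011 in non-cycling qNSC2, higher in aNSCs in each of the 3 units with both, and 17989 to 59756 in cycling aNSCs. Rps6 showed the same, at 361 to 1158 in non-cycling aNSCs and 141 to 471 in non-cycling qNSC2. Slit1 was at 8.33 to 121 in non-cycling and 25 to 380 in cycling aNSCs, and at 0 to 7.14 in non-cycling qNSC2.

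**Figure D4:**
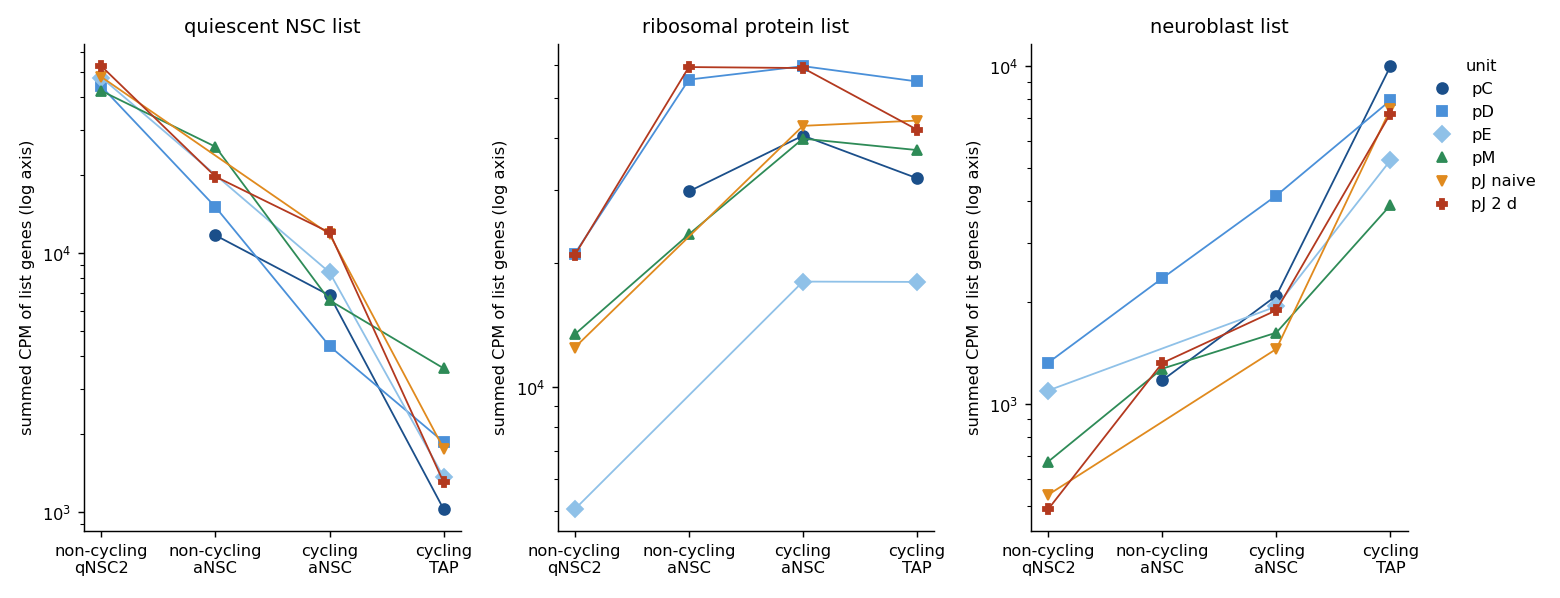
Summed CPM (log axis) of the quiescence, ribosomal and neuroblast lists in non-cycling qNSC2, non-cycling aNSC, cycling aNSC and cycling TAP, each cell thinned to 30000 counts; lines join the classes of 1 unit that had 3 or more cells. The quiescence list falls from left to right in each unit. The neuroblast list rises, but without Stmn1 it falls from non-cycling to cycling aNSCs in pD (1013 to 882) and pM (1061 to 700), and the ribosomal list is lowest in qNSC2 in the 5 units that have that class.

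Across single aNSCs the numbers of S phase and of G2 and mitosis genes were positively related (Spearman's rho 0.45 over 62 cells of pD, 0.88 over 11 of pM and 0.57 over 22 of pJ 2 d). The number of S phase genes was inversely related to the number of quiescence list genes found in the cell (-0.38, -0.41 and -0.31). Counted in the same way, the astrocyte and neuroblast lists were inversely related in pJ 2 d (-0.75) but not in pD (-0.07) or pM (0.03). Cells of 1 unit share a library set and the lists share each cell's 30000 counts, so these values are descriptions.

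At 30000 counts per cell, Slc1a3 was found in 109 of 111 aNSCs and Egfr in 86. Slc1a3 was found together with the proliferation antigen Mki67 in 43 cells. Dcx was found in 5 aNSCs (4.5%), against 53.1% of TAPs and 95.8% of neuroblasts at the same depth, and 1.16% of qNSC2. Dlx1 was found in 27.9% of aNSCs, 75.2% of TAPs and 99.2% of neuroblasts. Olig2, a factor of progenitors and of the oligodendrocyte lineage, was found in 24 aNSCs. Its share of 21.6% compares with 6.19% of TAPs and 2.91% of qNSC2, while the oligodendrocyte gene Mbp was found in 4.5% of aNSCs and 4.65% of qNSC2. Thbs4 was found in 16 aNSCs, 11 of them with Egfr.

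The knockout label was checked on the interferon receptors. Ifngr1, a chain of the interferon gamma receptor, had 0 counts in the 7 KO naive and 24 KO 2 d aNSCs, against 32.1 CPM in TiCY aNSCs (5 of 13 cells) and 2.29 to 61.0 in the WT units. The exact Poisson upper bounds of the zeros were 4 and 0.907 CPM, so pD, at 2.29 with counts in 2 of 63 cells, lay within the first. These bounds cover counting error and not the spread between cells. Since 5 of 13 TiCY cells had counts, the zero in 7 naive KO cells is a weak check. Ifnar1, a chain of the type I receptor, still had counts in both KO groups, at 98.6 CPM with 98.9% in 1 cell of KO naive and 11.8 CPM in KO 2 d. Which part of each gene the knockout removes is not given in the sources used here, so the Ifnar1 counts check nothing. The genotype and treatment groups below held 1 unit each, so their differences have no replicate check; brackets are exact 95% Poisson intervals of counting error, and ratios are log2 of CPM with 5 added.

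In KO aNSCs taken 2 d after ischemia, Gfap and most immediate early genes at 50 CPM or more in either group were higher than in naive KO aNSCs of the same letter. The groups also differ in their genotype label, with TiCY named in the ischemia group and not in the naive one, so ischemia cannot be told apart from tamoxifen and the TiCY alleles. Of 5702 genes at 50 CPM or more in either group, 456 were past 4-fold higher (8.0%) and 664 past 4-fold lower (11.6%), 19.6% in all. Jun, a subunit of the AP-1 factor, was at 1279 CPM [1244 to 1314] in 22 of 24 cells after ischemia and at 14.1 [7.50 to 24.1] in 3 of 7 naive cells. In TiCY naive aNSCs Jun was at 604 CPM and in WT units at 3.30 to 275, so the naive KO value was the low one among the TiCY and KO groups. Fos was at 1828 [1787 to 1870] in 23 of 24 cells against 614 [565 to 667] in 2 of 7, and Klf6 at 180 in 15 cells against 0. Of 10 immediate early genes at 50 CPM or more, 9 were higher and 4 past 4-fold (median 1.59, against -0.21 over all such genes). The naive KO group was also low on this list beside naive TiCY aNSCs. In that comparison 6 of 8 genes at 50 CPM or more were lower in KO (median -0.99, against 0.10 over all). The share of the difference after ischemia that comes from this low naive level was not tested.

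Gfap was at 2236 CPM [2190 to 2282] in 17 of 24 aNSCs after ischemia, and at 230 [200 to 263], all of it in 1 cell, of 7 naive ones. In the other units it was at 0 to 23.9 CPM. The qNSC2 of the same letter went the same way, with a log2 ratio of 4.55 beside 3.26 in aNSCs, and TAPs gave 3.06. C4b, a complement component that reactive glia express, was at 256 CPM [241 to 273] in 16 of 24 cells and at 0 [upper bound 4] in naive cells, and the inhibitor of differentiation Id1 at 316 against 5.42. The nuclear receptor Nr2f1 (289 CPM against 0) and Spag7 (228 against 0) were the other named gains, together with a gene known only as ENSMUSG00000095041 (570 against 3.25).

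Among the named losses after ischemia, Tmem161b, Ahctf1, 2610316D01Rik, Pter and Invs each had 57.9% to 89.2% of their naive counts in 1 of 7 cells. Notch1, the receptor, was at 265 CPM in 23 of 24 cells against 1182 in 7 of 7 (log2 ratio -2.14), and its ligand Jag1 at 20.9 against 152. Of 4 G2 and mitosis genes at 50 CPM or more, 3 were past 4-fold lower, among them Mki67 at 2.46 against 62.8 CPM (3 cells in each group), while the 12 S phase genes split 6 and 6 (median 0.20). Sox4 was at 2034 against 340 CPM in all cells of both groups. The neuroblast list had 9 genes at that level, of which 4 were past 4-fold higher (median 1.71), and the lineage factors Olig1 and Olig2 were at 330 and 73.8 CPM against 35.8 and 4.33. Egfr was at 454 [433 to 475] and 555 [508 to 605].

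Naive KO and naive TiCY aNSCs differ in letter and in the mice's tamoxifen label as well as in the knockout, and these cannot be told apart. Of 5989 genes, 552 were past 4-fold higher in KO (9.22%) and 745 lower (12.4%), 21.7% in all. Of the 25 S phase genes, 18 reached 50 CPM in either group and the others were not compared. All 18 were lower in KO (median -1.28, against 0.10 over all), 2 of them past 4-fold. Mki67 was at 62.8 against 585 CPM. The number of S phase genes per thinned cell did not go this way, with a median of 4 in 5 KO cells and 3 in 11 TiCY cells. By the cycling call, 3 of 5 KO and 5 of 11 TiCY cells were cycling. This difference between sums and cells was not tested. Ribosomal genes were higher in 28 of 30 (median 0.64), none past 4-fold. Named losses included Ufl1 (0 against 256 CPM), Mtif2 (0 against 179), Btbd7 (0 against 156) and Jun (14.1 against 604). Named gains were Tmem161b, Pias4, Trpc1, Zfp839 and Chpf2, at 101 to 340 CPM in KO and 0.543 to 3.80 in TiCY, with 38.8% to 88.2% of counts in 1 cell. The interferon-induced Ifi27 was at 6.50 CPM [2.39 to 14.1] in KO naive, 330 [304 to 357] in TiCY and 172 [160 to 185] in KO 2 d.

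**Figure D5:**
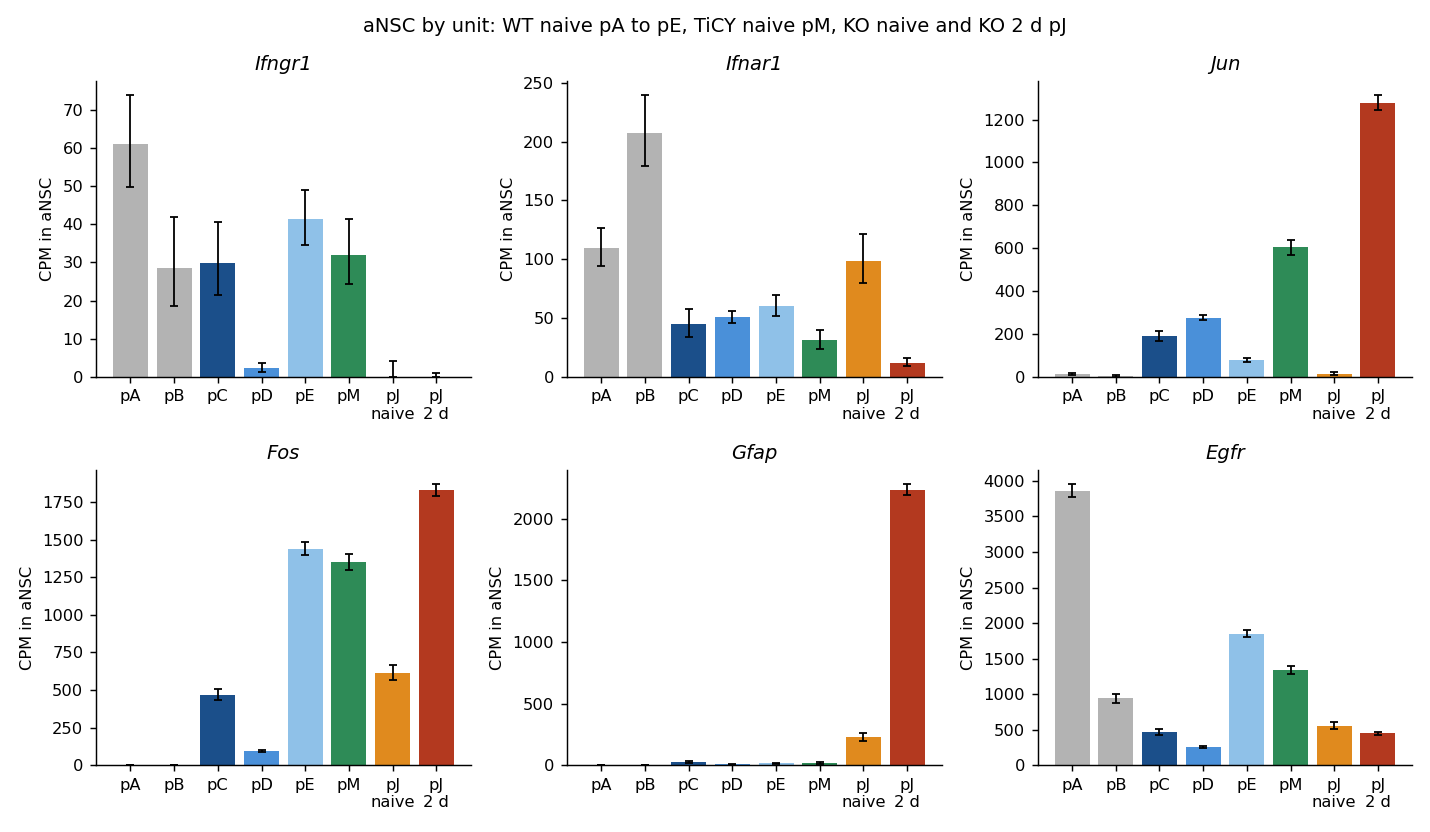
CPM of 6 genes in the aNSCs of each unit, with exact 95% Poisson intervals as error bars; grey bars are the WT units pA and pB with 2 cells each. Ifngr1 is at 0 in both KO groups, Jun, Fos and Gfap are highest in KO 2 d, and Egfr has counts in every unit.

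Among the labelled vSVZ cells of a sort that matched the count table, the share labelled aNSC was 27.2% in the WT GLAST sort of pD (63 of 232, exact binomial 95% interval 21.5 to 33.4). In the TiCY and KO GLAST sorts it was 6.91% in pM (13 of 188, 3.73 to 11.5), 5.22% in pJ naive (7 of 134, 2.13 to 10.5) and 10.5% in pJ 2 d (24 of 228, 6.86 to 15.3). The intervals of pM and both pJ groups overlap, and 1 unit per group allows no test. The other labels in these sorts differ. The pD sort held 57 qNSC1 and no vSVZ astrocytes. The sorts of pM, pJ naive and pJ 2 d held 113, 79 and 36 vSVZ astrocytes and no qNSC1. The share in pD is therefore not compared with theirs. In pE 3 of 35 cells of the sort titled NSC were labelled aNSC (8.57%). In pC the cells came from the sorts titled ASTRO (7 of 23) and NSC (3 of 17), in pA and pB from the ASTRO sort (2 of 11 and 2 of 14), and none of the 19, 21 and 27 cells in the sorts titled NB of pA, pB and pC was labelled aNSC.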

How the data were processed

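RNA libraries of single cells were counted per gene by the authors with STAR and featureCounts on GRCm38 (mm10), per the submitters' processing notes, which name no version or annotation. The deposited table holds raw counts, not normalised, for 2584 cells (rows) and 35606 genes (columns). Of 2084 labelled cells, 1981 matched a row by name, and the 603 other rows were not used. Libraries were made by Smart-seq3, per the labels' protocols; whether reads or molecules were counted is unknown here, so intervals cover counting error only. No doublet caller was run, since cells were sorted singly onto plates.

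Counts were summed per labelled type and unit (3 or more cells; 28 sums, 6 types, 6 units), filtered with filterByExpr (17427 genes kept), TMM-normalised and tested with edgeR 4.0.16 (quasi-likelihood, type plus unit block, 17 residual degrees of freedom, Benjamini-Hochberg adjusted p under 0.05; R 4.3.3). Log2 differences are aNSC minus the other type. Units paired the sums: deviations of aNSCs correlated with those of other types of the same unit at 0.1163 to 0.7597 (22 pairs, median 0.472), and at a median of -0.092 across units. With the unit as a block, the edgeR p-values measure how far differences between types vary from unit to unit, each of 1 or more mice. That spread is estimated over all 28 sums, so units that lack a compared type also bear on its calls. Cycling shares were compared by exact sign-flip permutation over units. Genotype and treatment groups of 1 unit were compared by CPM with exact Poisson intervals. DESeq2 1.42.0 and limma 3.58.1 served as alternatives, and the edgeR steps were tested on simulated data. There, a log2 difference of 1 was recovered for 2% of changed genes against qNSC2 and 4% against TAPs. A difference of 2 was recovered for 28% and 34%, and of 4 for 88% and 90%. The changed genes were drawn from those of higher mean CPM, and no other gene differed between types. Recovery of genes with fewer counts was not measured. Not passing the test therefore does not show that a gene is unchanged.

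Genes named are the 4 markers; per contrast, the called genes of largest change with a mean of 50 CPM or more that go one way in every unit; called list members of largest change; and, for groups of 1 unit, the largest past 4-fold with counts in at least 50% of the cells of the higher group. Other genes named as examples from the lists, or for their levels, were chosen after their values were seen. Members and lists were chosen with earlier results of these data known. Gene symbols came from the reference tables for 35455 genes, and 47 genes share a symbol. Of 199 positioned genes, 96 overlap another gene, and no source used here says whether counting used strand. Results for a few genes that the rule names are not reported here.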

Additional observations from a re-analysis of the deposited data

Results flagged for a closer look

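Of 42 values per unit that were looked at over 5 or 6 units, 6 had 1 unit far from the others by Dixon's criterion, which chance alone gives in about 1 of 20 groups. Unit pE, with 3 aNSCs, gave 3 of them: the glial stem cell list had a median log2 ratio of -2.02 against qNSC2 (the other units -1.15 to -0.90), Mcm7 was at 720 CPM (the others 25 to 187), and the cycling share was 100% (the others 45.5% to 60.0%, under thresholds that differ between the library sets). In pJ 2 d, the neuroblast list had a median log2 ratio of 1.42 against qNSC2 (the others 0.00 to 0.21), and Btg2 was at 576 CPM in aNSCs (the others 165 to 314). In pJ naive, Hells had a log2 ratio of 7.09 against qNSC2 (the others 4.11 to 4.86), where its qNSC2 sum held 0 counts.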

How the results depend on the processing

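The number of genes called depended on the method. Of the values recomputed for named genes, 996 kept their side of the threshold, 483 lost it, 8 gained it and 0 changed direction. Apart from the 4 markers, these were called genes chosen for the size of their change, so a stable direction was in part built into the choice. Of the recomputed list medians, 368 stayed within the spread between units, 16 moved beyond it and 6 changed direction. Calls against qNSC2, TAP, neuroblast, qNSC1 and vSVZ astrocyte, in that order, numbered 59, 32, 848, 311 and 545 with no replicate block, 1969, 1233, 3127, 2189 and 2418 by DESeq2 (TAP split 765 higher, 468 lower), and 1759, 576, 2603, 1742 and 2775 with each cell weighted equally in limma. With no low-count filter they were 1295 (qNSC2) and 805 (TAP); with sums of 5 or more cells, 432 (qNSC2; 248 higher, 184 lower) and 716 (qNSC1); with only the compared types in the fit, 386 (TAP; 142 higher, 244 lower) and 453 (neuroblast; 198 higher, 255 lower), which turns the balance of both, and for qNSC2 412 higher and 367 lower. WT units alone gave 5, 0, 3 and 736 (qNSC2, TAP, neuroblast, qNSC1), and TiCY and KO units alone 190, 115 and 861 (qNSC2, TAP, astrocyte). Leaving out each unit gave 348 to 544 (qNSC2), 57 to 230 (TAP), 758 to 1474 (neuroblast), 475 to 1176 (qNSC1), 563 to 1166 (astrocyte) and 0 to 3 for the difference between WT and other units. Single values were 379 (qNSC2) without pJ 2 d; 159 and 114 (TAP) without pJ naive and pC; 989 and 762 (neuroblast) without pJ naive and pJ 2 d; 921 (qNSC1) without pM; and 697 and 573 (astrocyte) without pJ naive and pM. The cause of these shifts was not tested. Against TAPs, the ribosomal list median turned from 0.04 to -0.0021, -0.0103 and -0.0594 without pC, pJ naive and pJ 2 d and -0.0459 in WT units (0.1665 without pE), and the immediate early median from 0.19 to -0.0682 without pM and -0.0075 in WT units (0.9174 without pD). The cycling difference from TAPs was -57.6 points on G2 and mitosis genes alone, and -36.9 to -26.0 without each unit. With 20 CPM added, 198 genes were past 4-fold higher and 286 lower after ischemia, and 236 and 370 in KO against TiCY. Over qNSC2, aNSC, TAP and neuroblast cells only, the aNSC share of the sorts was 75% in pC (NSC), 36% in pD, 12.7% in pJ naive, 12.8% in pJ 2 d and 17.3% in pM. Without Stmn1, the neuroblast list of cycling minus non-cycling aNSCs turned to -130 CPM in pD and -361 in pM.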
